A study of Mus musculus with 38 samples.

Results

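Matrix metalloproteinases (MMPs) and their tissue inhibitors (TIMPs) were followed in mouse intestinal epithelium before and during chemical colitis. The members are 10 genes chosen by symbol from the 46078 gene identifiers in the count files: Mmp3, Mmp7, Mmp9, Mmp10, Mmp12, Mmp13, Mmp14, Mmp15, Timp1 and Timp2. All 10 were in the files and in all 38 RNA sequencing libraries, each from 1 animal. KO libraries came from C57BL/6 mice in which a floxed Hk2 gene was targeted by Cre recombinase under the Villin promoter, which is active in gut epithelium. WT libraries came from Hk2 fl/fl littermates, and Hk2 encodes the glycolytic enzyme hexokinase 2. There were 4 WT and 5 KO libraries of day 0, 7 WT and 8 KO libraries of day 3, and 7 libraries of each genotype on day 7. Days 3 and 7 are days of an experiment with 1.5% dextran sodium sulfate (DSS), which injures the colon lining, in males aged 10 to 12 weeks. Day 0 mice had no colitis, and the labels give basal animals of 9 to 11 or 86 to 92 weeks without saying which entered day 0. The labels call the material intestinal epithelial cells, while the series text speaks of colon tissue.

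MMPs are zinc-dependent proteases made as inactive precursors, most of them secreted, that cleave collagens, laminins, elastin and many non-matrix proteins. Mmp14 and Mmp15 are instead held in the cell membrane, and Mmp14 can activate secreted precursors at the cell surface. TIMPs bind the active site and block it, so the balance of both families sets matrix turnover. In the gut, Mmp7 is known as an epithelial enzyme that processes defensins, whereas Mmp9 and Mmp8 are stored in neutrophil granules, Mmp12 is the macrophage elastase, and Mmp3 and Mmp13 are commonly made by fibroblasts of injured mucosa.

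Levels are CPM, counts per M (mega) total counts with totals scaled by the TMM method, and tests are edgeR quasi-likelihood tests with Benjamini-Hochberg adjustment over all genes tested, with genes called at an adjusted p under 0.05. Totals ranged from 10.5 to 60.6 M counts per library, so that 3 counts corresponded to 0.0457 to 0.332 CPM after TMM scaling. Epithelial markers (Epcam, Cdh1, keratins and others) summed to 11147 to 25411 CPM over all 38 libraries and colon epithelium markers to 8161 to 29446 CPM. Small intestine enterocyte markers summed to 24.9 to 209 CPM. Hk2 was 70.9 to 131 CPM in 7 of the 8 KO day 3 libraries but 440 CPM in the library labelled d3_KO_345, above every WT day 3 library (99.3 to 224 CPM). The counts of members called that use that library are therefore also given without it, as are the changes of Mmp9 and Timp1 in KO from day 3 to day 7. Other KO day 3 values and fold changes include it unless stated. On day 7, d7_KO_420 had 260 CPM of Hk2, above the lowest WT library (d7_WT_431, 231 CPM), while the other 6 KO libraries had 56.6 to 198 CPM. All 9 day 0 libraries carried another library series prefix than the other 29, so day 0 and library series cannot be told apart.

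Of the members, 5 lie in 1 cluster of 10 MMP genes that spans 427 kb of chromosome 9 (positions 7272514 to 7699585, GRCm38 build). In order along the plus strand these are Mmp13, Mmp12, Mmp3, Mmp10 and Mmp7. The others are on chromosome 2 (Mmp9, 164940780 to 164955850), chromosome 14 (Mmp14, 54431612 to 54441265), chromosome 8 (Mmp15, 95352268 to 95374293), chromosome X (Timp1, 20870166 to 20874735) and chromosome 11 (Timp2, 118301069 to 118355740, minus strand). All 10 are protein-coding in the GENCODE annotation, and values cover all exons of a gene. RefSeq promoter windows of the GRCm38.p6 build were matched by symbol for 9 of the 10 members. The 250 bases before each start were searched for TGANTCA, the letters bound by AP-1 factors, which read the same on both strands, and for TATAAA on the gene strand. A window with TGANTCA was found for 5 of the 9 members, which are the 5 of the chromosome 9 cluster, against 7.82% of all 27025 genes with a window, counting a gene if any of its windows matched (6.75% of all 32851 windows). TATAAA was found for 4 of the 9 (Mmp3, Mmp7, Mmp10 and Mmp13), against 8.94% of all genes (7.59% of all windows), and the 2 motifs did not overlap in these windows. Mmp14, Mmp15, Timp1 and Timp2 had neither string in this stretch. Mmp12 and Mmp7 each have 2 RefSeq starts, and the windows of the first start of Mmp12 and of the second start of Mmp7 had neither string.

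The 100 bases before the start are printed for the 5 cluster members, in which TGANTCA was found. Each of them was called higher on day 7 than on day 3 in both genotypes. So was Mmp9, which had no window, and Timp1, with neither string, was called higher in WT. Capitals mark TGANTCA and TATAAA, and all 5 are on the plus strand of chromosome 9. They end at the base before the RefSeq start: chr9:7272414-7272513 (Mmp13), chr9:7347274-7347373 (Mmp12, the second of its 2 RefSeq starts), chr9:7445722-7445821 (Mmp3), chr9:7502242-7502341 (Mmp10) and chr9:7691990-7692089 (Mmp7, the first of its 2 starts).
Mmp13: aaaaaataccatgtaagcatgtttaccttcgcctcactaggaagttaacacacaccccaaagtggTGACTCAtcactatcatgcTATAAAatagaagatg
Mmp12: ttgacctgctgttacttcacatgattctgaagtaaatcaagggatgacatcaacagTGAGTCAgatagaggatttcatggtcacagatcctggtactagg
Mmp3: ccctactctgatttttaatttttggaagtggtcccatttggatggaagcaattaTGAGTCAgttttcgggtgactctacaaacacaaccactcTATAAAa
Mmp10: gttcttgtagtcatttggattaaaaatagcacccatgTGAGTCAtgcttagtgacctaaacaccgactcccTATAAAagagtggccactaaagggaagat
Mmp7: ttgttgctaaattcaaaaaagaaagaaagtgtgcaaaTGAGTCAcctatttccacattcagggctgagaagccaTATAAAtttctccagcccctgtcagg
The TGANTCA match began 35 bases before the start in Mmp13, 44 in Mmp12, 46 in Mmp3, and 63 in both Mmp10 and Mmp7. The letters at the open position were C in Mmp13 and G in the other 4. Mmp8, which lies in the same cluster, had no match in its window. These are matches of letters, and neither binding nor a link to the day 7 levels was tested.

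The first comparison asked how the family changed between day 3 and day 7 of colitis in WT mice, which lies within 1 library series. Of the 10 members, 7 were higher on day 7 (Mmp3, Mmp7, Mmp9, Mmp10, Mmp12, Mmp13 and Timp1), against 10.6% of all 15541 genes tested. Timp2 alone was lower, against 8.7% of all genes, and the membrane-bound Mmp14 and Mmp15 were not called. All 10 passed the filter on low counts, but on the day 3 libraries alone only Mmp7, Mmp14, Mmp15 and Timp2 would have passed. The other 6 (Mmp3, Mmp9, Mmp10, Mmp12, Mmp13 and Timp1) entered through day 7, where they are high, so their part of the count is set by the filter. Of the 4 that did not depend on day 7, Mmp7 was higher and Timp2 lower. Without any filter, the same 7 members were called higher, against 6.52% of 28715 genes, and Timp2 lower, against 4.45%. In 5 members (Mmp3, Mmp9, Mmp10, Mmp12 and Mmp13) every day 7 library was above every day 3 library, which held for 2.7% of all genes tested, and all 5 are among those that entered through day 7.

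**Figure D1:**
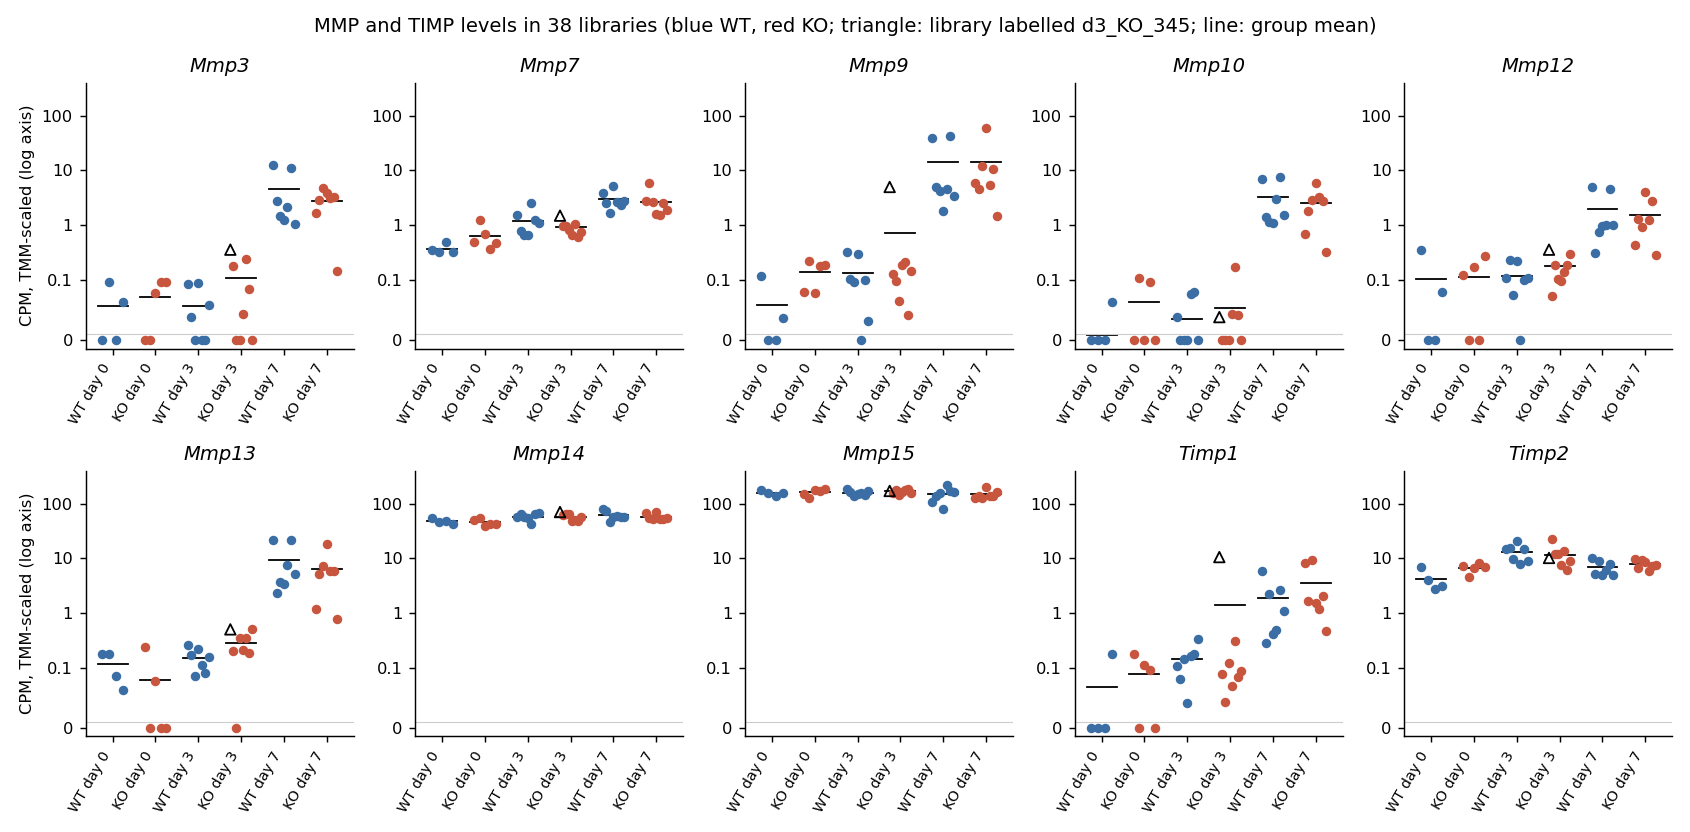
Level of each of the 10 members in every library, in TMM-scaled CPM on a log axis with 0 drawn below the grey line; points are libraries, lines are group means, and the triangle is the library labelled d3_KO_345. The 6 secreted MMPs stand higher on day 7 in both genotypes and Timp1 in WT, whereas in KO Timp1 is highest in the library labelled d3_KO_345 (10.5 CPM), and Mmp14 (39.6 to 79.6 CPM) and Mmp15 (80.4 to 221 CPM) lie in like ranges on all days.

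Among the stromelysins, which cleave proteoglycans, laminin and other MMP precursors, Mmp3 was at 0 to 0.0899 CPM in WT day 3 libraries (median 0.0211) and at 1.05 to 12.5 CPM on WT day 7 (median 2.11). The log2 fold change was 6.97 (edgeR adjusted p 9.83e-05, SE 0.86). The libraries d7_WT_356 (12.5 CPM) and d7_WT_419 (11.1 CPM) stood above the other 5, which had at most 2.81 CPM. Mmp10 had at most 3 counts in any WT day 3 library (0 to 0.0597 CPM, median 0) and 1.08 to 7.69 CPM on day 7 (median 1.502). Against the largest level of 3 counts in a WT day 3 library, 0.166 CPM, the mean of day 7 was higher by at least 19.6-fold (5.53e-05 as edgeR adjusted p). That level came from d3_WT_381, and without this library the bound was 48.45-fold. The same 2 libraries were again the highest, at 7.08 and 7.69 CPM, and no other exceeded 2.95 CPM.

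Mmp7, matrilysin, had the smallest of the 7 increases. It was at 0.65 to 2.55 CPM on WT day 3 (median 1.09) and 1.66 to 5.11 CPM on day 7 (median 2.63), giving 1.34 ± 0.33 as log2 fold change and SE (edgeR adjusted p 0.00963). The groups overlapped, because d3_WT_381 (2.55 CPM) was above 3 of the 7 day 7 libraries (d7_WT_361 at 2.54, d7_WT_419 at 2.35 and d7_WT_370 at 1.66 CPM).

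Mmp9, gelatinase B, was at 0 to 0.321 CPM on WT day 3 (median 0.0995) and 1.83 to 42.0 CPM on day 7 (median 4.59), giving 6.68 ± 0.92 as log2 fold change and SE (edgeR adjusted p 0.000178). Again d7_WT_356 (38.9 CPM) and d7_WT_419 (42.0 CPM) stood apart, and the other 5 had at most 4.96 CPM. Mmp12, the macrophage elastase, was at 0 to 0.232 CPM on day 3 (median 0.107) and 0.304 to 4.99 CPM on day 7 (median 0.994). Its log2 fold change was 3.96 (edgeR adjusted p 0.0008, SE 0.66), and without overlap the lowest day 7 value lay close to the highest of day 3. Mmp13, collagenase 3, which cuts fibrillar collagens, was at 0.0722 to 0.257 CPM on day 3 (median 0.160) and 2.34 to 21.8 CPM on day 7 (median 5.26). The log2 fold change was 5.91 (edgeR adjusted p 5.53e-05, SE 0.62), and the lowest day 7 library was well above the highest of day 3.

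The membrane-type enzymes kept their level within the spread between libraries. Mmp14 was at 42.6 to 66.8 CPM on WT day 3 (median 56.3) and 45.1 to 79.6 CPM on day 7 (median 56.6), giving 0.10 ± 0.12 as log2 fold change and SE (edgeR adjusted p 0.623). Mmp15 was at 139 to 185 CPM on day 3 (median 157) and 80.4 to 221 CPM on day 7 (median 153), giving -0.09 ± 0.16 as log2 fold change and SE (edgeR adjusted p 0.769). The groups overlapped for both genes. Mmp15 varied more on day 7, with d7_WT_386 (80.4 CPM), d7_WT_356 (107 CPM) and d7_WT_361 (136 CPM) below every day 3 library, and d7_WT_393 at 221 CPM above every one.

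The inhibitors moved in opposite directions. Timp1, a secreted inhibitor of most MMPs and an injury-responsive gene, was at 0.0225 to 0.339 CPM on WT day 3 (median 0.144) and 0.286 to 5.90 CPM on day 7 (median 1.09). The log2 fold change was 3.68 (edgeR adjusted p 0.0019, SE 0.70), and only d7_WT_361 (0.286 CPM) lay below the highest day 3 library, d3_WT_487 (0.339 CPM). Timp2, which also takes part in the activation of the Mmp2 precursor by Mmp14, was at 7.99 to 21.1 CPM on day 3 (median 14.99) and 4.96 to 10.3 CPM on day 7 (median 6.20). It fell by 0.92 on the log2 scale (edgeR adjusted p 0.0126, SE 0.24). The groups overlapped between 7.99 and 10.3 CPM, where 3 day 3 and 2 day 7 libraries lay. These levels are of bulk RNA, so fewer cells of a type and less RNA per cell cannot be told apart. Without both d7_WT_356 and d7_WT_419, a choice made after seeing the data, the same 8 members were called, with log2 fold changes of 4.75 for Mmp9, 2.66 for Mmp12 and 2.64 for Timp1. Over all 15811 genes tested in that fit, 843 were higher and 839 lower.

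The same comparison in KO mice called 6 members higher, against 10.5% of all 15568 genes tested, and none lower, against 8.83%. The 6 were the secreted MMPs: Mmp3, Mmp7, Mmp9, Mmp10, Mmp12 and Mmp13. As in WT, on the day 3 libraries alone only Mmp7, Mmp14, Mmp15 and Timp2 would have passed the filter, so that 5 of the 6 calls depended on day 7 for entry, and Mmp7 did not. Without any filter, the same 6 members were called higher, against 5.54% of 28858 genes, and none lower, against 4.61%. Every day 7 library was above every day 3 library for Mmp7, Mmp10 and Mmp13, which held for 2.6% of all genes tested. Without the library labelled d3_KO_345 it also held for Mmp9 and Timp1, but the share of all genes without that library was not computed. All of these but Mmp7 entered through day 7.

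The library labelled d3_KO_345 had 4.98 CPM of Mmp9 and 10.5 CPM of Timp1, while the other 7 KO day 3 libraries had 0.023 to 0.21 and 0.0235 to 0.315 CPM. It also had the highest KO day 3 values of Mmp3 (0.357 CPM), Mmp7 (1.49 CPM), Mmp12 (0.357 CPM), Mmp13 (0.504 CPM) and Mmp14 (69.9 CPM). For Mmp10 it had 1 count. Its neutrophil markers summed to 170 CPM and its macrophage and monocyte markers to 107 CPM, the highest of the KO day 3 group. Its fibroblast markers summed to 78.5 CPM, below the 145 CPM of d3_KO_349. The part of any of these cell types in these values was not tested.

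Mmp3 in KO was at 0 to 0.357 CPM on day 3 (median 0.0463) and 0.144 to 4.76 CPM on day 7 (median 3.18), giving 4.68 ± 0.75 as log2 fold change and SE (edgeR adjusted p 0.000379). The groups overlapped through d7_KO_423 (0.144 CPM), while the next lowest day 7 library had 1.64 CPM. Mmp10 was at 0 to 0.175 CPM on day 3 (median 0.0105) and 0.329 to 5.86 CPM on day 7 (median 2.71), giving 6.48 ± 0.77 as log2 fold change and SE (edgeR adjusted p 4.18e-05). Mmp7 was at 0.597 to 1.49 CPM on day 3 (median 0.894) and 1.55 to 5.79 CPM on day 7 (median 2.55), giving 1.56 ± 0.28 as log2 fold change and SE (edgeR adjusted p 0.000917). In the KO mice Mmp7 thus separated the days completely, with d7_KO_367 as its highest library.

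Mmp9 was at 0.023 to 4.98 CPM on day 3 (median 0.137) and 1.46 to 59.7 CPM on day 7 (median 5.94), giving 4.25 ± 1.05 as log2 fold change and SE (edgeR adjusted p 0.00867). Leaving out the library labelled d3_KO_345, it was 6.95 (edgeR adjusted p 5.47e-05, SE 0.89). Mmp12 was at 0.0507 to 0.357 CPM on day 3 (median 0.162) and 0.288 to 4.02 CPM on day 7 (median 1.24), giving 3.11 ± 0.55 as log2 fold change and SE (edgeR adjusted p 0.000757), and d7_KO_423 alone lay below the day 3 maximum. Mmp13 was at 0 to 0.504 CPM on day 3 (median 0.282) and 0.781 to 18.3 CPM on day 7 (median 5.90), giving 4.47 ± 0.66 as log2 fold change and SE (edgeR adjusted p 0.000192). The library d7_KO_420 was the highest for Mmp9, Mmp10, Mmp12 and Mmp13, and d7_KO_423 the lowest for these 4 and for Mmp3. The former is the library with Hk2 within the WT range, and without it and the library labelled d3_KO_345 the same 6 and Timp1 were called higher, with log2 fold changes of 5.86 for Mmp9 and 4.12 for Mmp13. In that fit Mmp15 was called lower (-0.25, edgeR adjusted p 0.0121). Over all 15518 genes tested there, 2244 were higher and 2174 lower.

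Timp1 in KO was at 0.0235 to 10.5 CPM on day 3 (median 0.0824) and 0.473 to 9.22 CPM on day 7 (median 1.68). With all libraries its log2 fold change was 1.302 (edgeR adjusted p 0.481, SE 1.12). When the library labelled d3_KO_345 was left out it was 5.11 (edgeR adjusted p 0.00018, SE 0.76), and the groups no longer overlapped. Timp2 was at 6.02 to 22.3 CPM on day 3 (median 11.0) and 5.92 to 9.69 CPM on day 7 (median 7.68), giving -0.56 ± 0.22 as log2 fold change and SE (edgeR adjusted p 0.0962). Mmp14 (log2 fold change 0.004, SE 0.10) and Mmp15 (-0.16, SE 0.09) were again not called, with overlapping groups. Single libraries decided 2 of these calls: without d7_KO_420 Mmp15 was lower (-0.26, edgeR adjusted p 0.00946), and without d3_KO_388 Timp2 was lower (-0.66, edgeR adjusted p 0.0354). Without d7_KO_366, d7_KO_368 and the library labelled d3_KO_345 together, a choice made after seeing the data, Timp1 was higher by 3.76 (edgeR adjusted p 0.00014, SE 0.47).

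**Figure D2:**
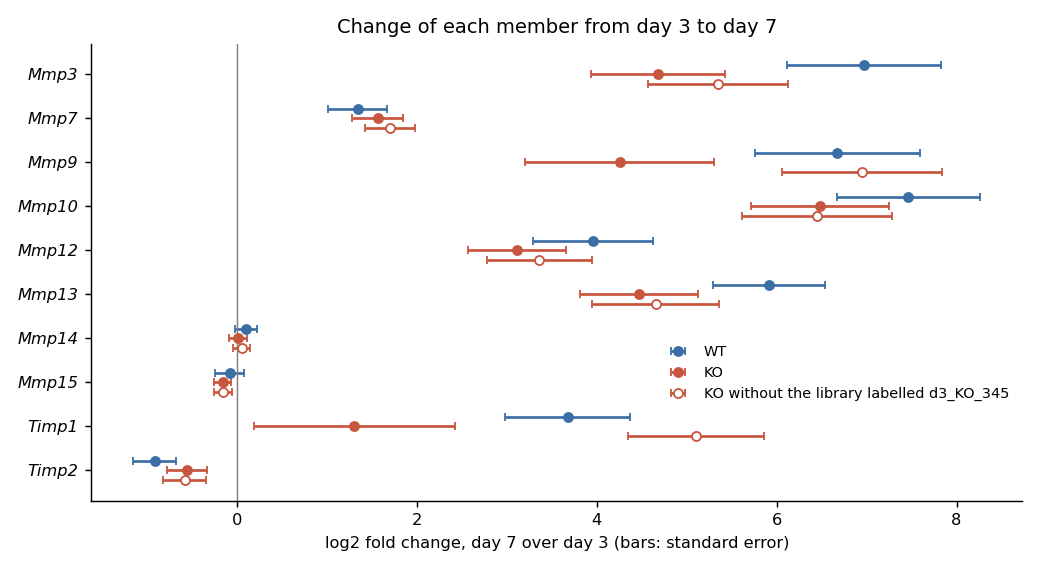
Log2 fold change of day 7 over day 3 for each member, with its standard error, in WT (blue), KO (red) and KO without the library labelled d3_KO_345 (open). The library labelled d3_KO_345 moved Timp1 in KO from 5.11 to 1.302 and Mmp9 from 6.95 to 4.25, and the values of Mmp14 and Mmp15 lie close to 0.

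Whether the change from day 3 to day 7 differed between genotypes was tested as an interaction. No member was called, nor any of 16371 genes tested (0%), by edgeR or by the DESeq2 Wald test, and 440 genes had an unadjusted p under 0.05 by edgeR. Among the members none had such a p. The differences, KO minus WT, were -2.28 for Mmp3 (SE 1.24, edgeR p 0.0752), -2.41 for Mmp9 (SE 1.44) and -2.35 for Timp1 (SE 1.47). Without the library labelled d3_KO_345 they were -1.62 (SE 1.33), 0.27 (SE 1.34) and 1.43 (SE 1.06), so that 2 of the 3 changed sign.

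The comparison of KO with WT within a day asked whether loss of Hk2 went with another protease level. On day 0, 3 members passed the filter and none was called, against 0.0335% of 14944 genes tested. Timp2 had an unadjusted edgeR p of 0.0231: it was at 7.05, 3.96, 2.73 and 3.15 CPM in the WT libraries and at 7.16, 4.54, 6.70, 8.13 and 6.97 CPM in the KO libraries. The log2 fold change was 0.71 (edgeR adjusted p 0.411, SE 0.27), and the groups overlapped through d0_WT_31 alone. Mmp14 (log2 fold change -0.05, SE 0.11) and Mmp15 (0.10, SE 0.12) differed by less than their spread. On day 3, 4 members passed and none was called, against 0.00647% of 15461 genes tested, also without the library labelled d3_KO_345, with log2 fold changes from -0.38 for Mmp7 (SE 0.29) to 0.08 for Mmp15 (SE 0.07). On day 7, all 10 passed and none was called, against 0.00642% of 15584 genes tested. The DESeq2 Wald test also called no member on any of the 3 days, and Timp2 on day 0 was the only member with an unadjusted p under 0.05 by either tool.

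The spread on day 7 limited this comparison. The largest differences were 0.90 for Timp1 (edgeR adjusted p 0.591, SE 0.73), -0.71 for Mmp3 (edgeR adjusted p 0.638, SE 0.66) and -0.54 for Mmp13 (edgeR adjusted p 0.724, SE 0.65). Mmp9 had the same mean in both genotypes, 14.3 ± 17.9 CPM in WT and 14.3 ± 20.4 CPM in KO (SD, n = 7 each), with a standard deviation above the mean. Without d7_KO_420 no member was called either, and the differences were -1.09 for both Mmp9 (SE 0.74) and Mmp13 (SE 0.63). The membrane-type genes had the tightest estimates with all libraries, -0.08 for Mmp14 (SE 0.12) and 0.02 for Mmp15 (SE 0.18).

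Comparisons with day 0 crossed the 2 library series. Age may have differed too, since the labels allow 9 to 11 or 86 to 92 weeks for day 0, against 10 to 12 weeks. In WT, day 3 against day 0 had 4 members tested, and Mmp7 and Timp2 were higher, against 20.4% of all genes higher and 25.6% lower. Mmp7 was at 0.352, 0.319, 0.49 and 0.321 CPM on WT day 0, all below the lowest WT day 3 library (0.65 CPM), giving 1.61 ± 0.44 as log2 fold change and SE (edgeR adjusted p 0.00831). Timp2 rose by 1.57 (edgeR adjusted p 0.00113, SE 0.31), again without overlap, so that Timp2 in WT was higher on day 3 than on days 0 and 7. In KO, 4 members were tested and none was called, with or without the library labelled d3_KO_345, against 22.6% higher and 23.7% lower. There Mmp7 was at 0.485, 1.22, 0.687, 0.366 and 0.465 CPM on day 0, overlapping day 3 (log2 fold change 0.41, SE 0.32), and Timp2 had 0.66 (edgeR adjusted p 0.0534, SE 0.27).

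The 7 members higher on day 7 than on day 3 in WT were also higher on day 7 than on day 0, in WT (27.8% of all genes higher, 29.2% lower) and in KO (27.3% higher, 27.3% lower). Day 0 levels of Mmp3, Mmp9 and Mmp10 were at or under 3 counts in all 9 libraries, and neither these genes nor Mmp12, Mmp13 and Timp1 would have passed the filter on the day 0 libraries alone. These 6 entered through day 7, so their part of the count is set by the filter. Against the largest level of 3 counts on WT day 0, 0.210 CPM, the WT day 7 means of Mmp3, Mmp9 and Mmp10 were at least 22.02-fold, 67.9-fold and 15.6-fold higher. Against that of KO day 0, 0.332 CPM, those of KO were at least 8.47-fold, 42.9-fold and 7.54-fold higher. As these floors differ, the bounds do not compare the genotypes: the day 7 mean of Mmp9 was 14.3 CPM in both. The bound of Mmp9 in KO fell to 20.2-fold without d7_KO_420. In KO the same bound was at least 4.69-fold for Mmp12 and 10.5-fold for Timp1. Timp2 on day 7 did not differ from day 0 by the test (0.65, SE 0.30, edgeR adjusted p 0.0761 in WT and 0.11, SE 0.17 in KO). Timp2 and Mmp14 were called higher on WT day 7, making 9 members, both without the filter (edgeR adjusted p 0.0394 and 0.0412) and with all 38 libraries in 1 fit (0.0443 and 0.0493). Mmp14 was also called on KO day 7 without the filter (edgeR adjusted p 0.0148). Without d0_WT_31 Timp2 was higher on WT day 7 (1.02, edgeR adjusted p 0.00909), and Mmp14, Mmp15 and Timp2 crossed the threshold in some other day 0 comparisons when 1 library was left out. No member was called in the interaction of genotype with day 3 against day 0 (0% of all genes) or with day 7 against day 0 (0.00531%), by edgeR or by the DESeq2 Wald test. In the former, 2492 genes had an unadjusted edgeR p under 0.05, and the DESeq2 Wald test called 35 genes higher and 67 lower. There, Mmp7 (-1.23, SE 0.53) and Timp2 (-0.94, SE 0.42) had unadjusted edgeR p of 0.0301 and 0.0359.

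Levels of different genes were compared per length, as CPM per kb of exon. Mmp15 was the highest member in all 6 groups, with means of 33.7 to 38.2 CPM per kb, and Mmp14 the second, with 10.5 to 14.1 CPM per kb. Their ranges did not overlap except on WT day 7, where the lowest Mmp15 value (18.49 CPM per kb) was just under the highest Mmp14 value (18.52 CPM per kb). Timp2 was the third on days 0 and 3, with 1.08 to 3.41 CPM per kb. On day 7 Mmp9 took that place by its mean in both genotypes (4.03 CPM per kb each), but the order there is loose. Its means rested on d7_WT_356 (11.0), d7_WT_419 (11.9) and d7_KO_420 (16.9 CPM per kb), and no other day 7 library exceeded 3.40 CPM per kb. From Mmp15 down to Timp2 in WT, and from Mmp14 down to Mmp12 in KO, each gene's range overlapped that of the next. Mmp12 was the lowest on day 7, at 0.268 CPM per kb in WT and 0.215 in KO.

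**Figure D3:**
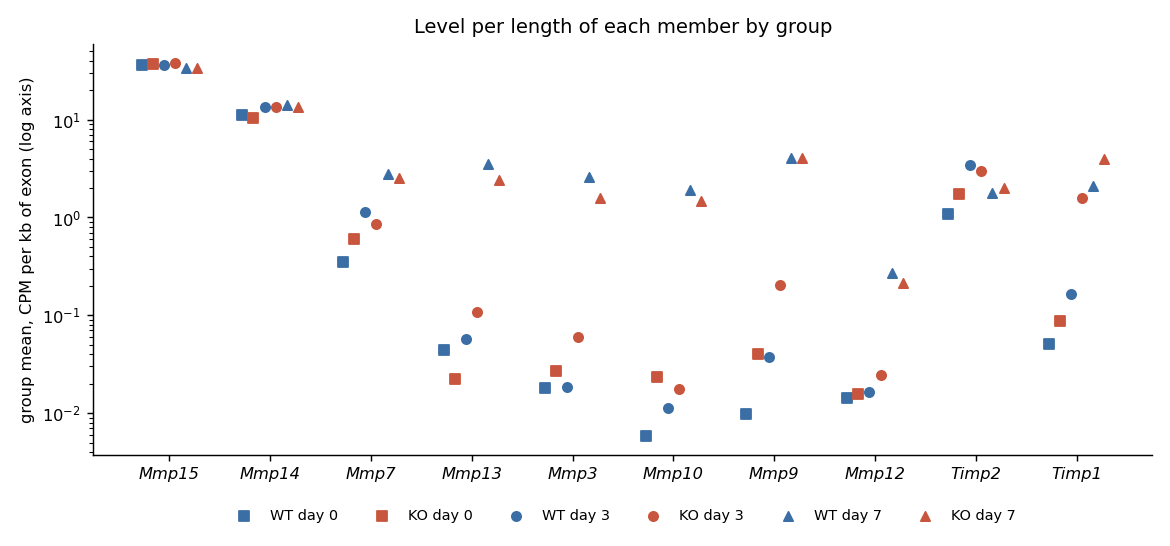
Group means of each member in CPM per kb of exon on a log axis, with squares for day 0, circles for day 3 and triangles for day 7, blue for WT and red for KO. Mmp15 and Mmp14 lie at 10.5 to 38.2 CPM per kb in all groups, while the day 7 means of the other MMPs apart from Mmp12 reach 1.46 to 4.03 CPM per kb.

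The make-up of the MMP pool also changed. This pool was the sum of 23 MMP genes, the members and others such as Mmp8, so the shares are not of the members alone. Mmp8 had a WT day 7 mean of 7.17 CPM per kb. Per length, Mmp14 and Mmp15 together held a median of 90.3% of the summed MMP level on WT day 0, 87.7% on WT day 3 and 73.6% on WT day 7. In KO the medians were 88.2%, 88.4% and 66.4%. Single day 7 libraries went down to 40.9% in WT and 48.8% in KO, whereas no library of day 0 or 3 was below 78.8%. Among the 4 TIMPs, Timp1 held a median of 2.24% on WT day 3 and 33.5% on WT day 7, and 1.72% and 47.9% in KO. The library labelled d3_KO_345 had the highest day 3 share of Timp1, 75.8%.

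The spread among day 7 libraries went along with markers of other cell types. The neutrophil markers (S100a8, S100a9, Csf3r and 7 others) summed to 10.9 to 47.7 CPM on WT day 3 and 161 to 1125 CPM on WT day 7, and to 16.1 to 170 and 147 to 1842 CPM in KO. All 10 were called higher on day 7 in both genotypes. Over all genes, 10.6% were called higher in WT and 10.5% in KO, which applies to each list below. Only 3 of the 10 passed the filter among the day 3 libraries of both genotypes. Most of them thus entered through day 7, where they are high, so their part of the count is set by the filter. The macrophage and monocyte markers summed to 38.4 to 46.5 CPM on WT day 3, 78.9 to 271 CPM on WT day 7, 33.2 to 107 CPM on KO day 3 and 79.9 to 297 CPM on KO day 7, with 8 of 10 called higher in each genotype. The fibroblast markers summed to 10.5 to 118 CPM on WT day 3, 17.005 to 125 CPM on WT day 7, 12.6 to 145 CPM on KO day 3 and 28.4 to 229 CPM on KO day 7, with 0 and 1 of 10 called, the latter Thy1, named after its value was seen. Lymphocyte markers also moved: of 5 B and plasma cell markers 5 were called higher in WT and 3 in KO, and of 6 T cell markers 2 in WT and 6 in KO. Among the day 3 libraries of both genotypes, 2 of these B and plasma cell markers and 5 of these T cell markers passed the filter. The B and plasma cell sums were 0.697 to 2.59 CPM on WT day 3 and 3.60 to 16.03 CPM on WT day 7, and 0.873 to 5.05 and 2.95 to 13.7 CPM in KO. The T cell sums were 2.35 to 24.96 CPM on WT day 3 and 11.9 to 55.4 CPM on WT day 7, and 12.6 to 20.7 and 18.02 to 48.5 CPM in KO. Of 8 colon epithelium markers 2 were called lower in WT and 3 in KO, against 8.7% and 8.83% of all genes, and none higher. The Paneth cell markers, several of them defensin (Defa) genes, summed to 7.03 to 95.2 CPM on WT day 3 and 7.31 to 43.8 CPM on WT day 7. In KO they summed to 13.3 to 502 and 6.97 to 16.8 CPM, and d0_KO_54 reached 686 CPM. Defa17, Defa21, Defa22, Defa24 and Defa26 were at 0 in all libraries of WT day 3, WT day 7 and KO day 7. On KO day 3 all of these but Defa21 were at 0, so the sums of days 3 and 7 came almost wholly from other genes of the list. Of 3 tested between days 3 and 7, 1 was called lower in WT and 2 in KO, and none higher, while Mmp7 was higher in both. No marker of the neutrophil, macrophage and fibroblast lists was at 0 in all libraries of a group on days 3 or 7.

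Of the 14 day 7 libraries, d7_KO_420 (1842 CPM), d7_WT_419 (1125 CPM) and d7_WT_356 (1120.5 CPM) had the highest neutrophil sums. These 3 were also the 3 highest libraries for Mmp9, Mmp10, Mmp12 and Mmp13, and for the sum of 5 endothelial markers (2.92 to 7.84 CPM on day 7). The highest fibroblast sums were in d7_KO_368 (229 CPM), d7_KO_366 (219 CPM) and d7_WT_356 (125 CPM), which were the 3 highest for both Timp1 and Timp2. On day 3 the highest fibroblast sum of each genotype was in d3_KO_349 (145 CPM) and d3_WT_353 (118 CPM). These libraries had only 0.076 and 0.0225 CPM of Timp1, but 22.3 and 21.1 CPM of Timp2, the highest of their groups. Mmp3 was highest in d7_WT_356, d7_WT_419 and d7_KO_368, the 3 libraries with the highest macrophage and monocyte sums. Mmp7 was highest in d7_KO_367 (5.79 CPM) and d7_WT_386 (5.11 CPM), whose neutrophil sums were 203 and 161 CPM, in the lower part of the range, while its next highest library was d7_WT_356 (3.88 CPM), one of the 3 with the highest neutrophil sums. The part of these cell types in the levels was not tested.

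**Figure D4:**
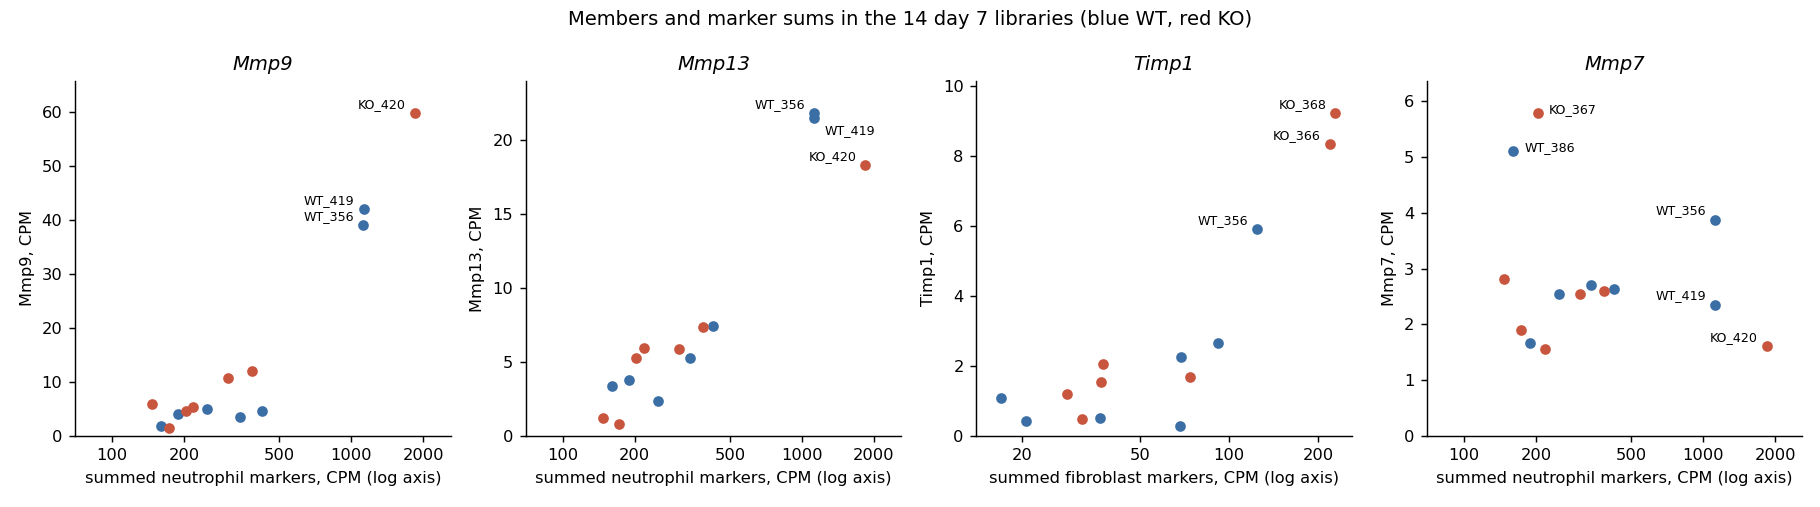
Level of Mmp9, Mmp13, Timp1 and Mmp7 against the summed neutrophil or fibroblast markers in the 14 day 7 libraries (log axis for markers; blue WT, red KO; named points are the highest on either axis). The 3 libraries with the most neutrophil markers (1120.5 to 1842 CPM) are the highest for Mmp9 (38.9 to 59.7 CPM) and Mmp13 (18.3 to 21.8 CPM), which does not hold for Mmp7.

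Beyond the members, 17 other MMP and TIMP genes were counted. In WT, 9 were tested between day 3 and day 7, with 2 higher (10.6% of all genes) and 2 lower (8.7%), and in KO 10 were tested, also with 2 higher (10.5%) and 2 lower (8.83%). Only 7 of the 17 passed the filter among the day 3 libraries of both genotypes. Genes that entered through day 7, such as Mmp8, have their part of the counts set by the filter. Mmp8, the neutrophil collagenase, was the largest: no WT day 3 library had more than 1 count, and its day 7 mean of 17.6 CPM (0.797 to 67.8 CPM) was higher by at least 106-fold (0.000131 as edgeR adjusted p). This bound was 55.5-fold without d7_WT_419 and 261-fold without d3_WT_381. Its highest day 7 libraries were the 3 with the highest neutrophil sums. Mmp25, a membrane-anchored MMP known from leukocytes, was higher in KO by 4.55 (edgeR adjusted p 0.000323, SE 0.71). Mmp19 rose by 4.96 in WT (edgeR adjusted p 0.000976, SE 0.85), and in KO its log2 fold change was 2.29 (edgeR adjusted p 0.139, SE 1.03), with 9.37 CPM in the library labelled d3_KO_345. Its exons share 789 bases with the antisense gene Tmem198b, whose reads cannot be told apart without strand.

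The inhibitors Timp3 and Timp4 were lower on day 7 in both genotypes, as Timp2 was in WT. Timp3, which is bound to the matrix, went from 2.55 to 16.96 CPM on WT day 3 (median 6.53) to 1.49 to 3.14 CPM on day 7 (median 2.51). It fell by 1.84 on the log2 scale in WT (edgeR adjusted p 0.00279, SE 0.37) and by 1.57 in KO (edgeR adjusted p 0.0157, SE 0.43), and it shares 1733 exon bases with the antisense gene Syn3. Timp4 fell by 2.35 in WT (edgeR adjusted p 0.00655, SE 0.54) and by 3.58 in KO (edgeR adjusted p 6.16e-05, SE 0.45). Thus 3 of the 4 TIMPs were lower and Timp1 was higher on day 7 in WT.

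A list of 24 genes that activate, restrain or work beside MMPs had 9 higher and 2 lower of 22 tested in WT, against 10.6% and 8.7% of all genes, and 10 higher and 2 lower of 21 in KO, against 10.5% and 8.83%. The median log2 fold changes were 0.32 and 0.48, beside 0.01 and -0.01 over all genes. Named by size in WT were Lcn2, whose product binds Mmp9 (7.66, SE 1.02), Spp1, osteopontin, an MMP substrate (6.30, SE 0.88), and Plat, tissue plasminogen activator (4.29, SE 0.79). Of the 24 genes, 19 passed the filter among the day 3 libraries of both genotypes. Lcn2 and Spp1 had WT day 3 means of 0.127 and 0.038 CPM, under the filter's cut-off of 0.217 CPM before TMM scaling. In WT they entered through day 7, where they are high, so their part of the count is set by the filter. In WT, the sheddase Adam15 fell by 1.05 (SE 0.11) and Adamts9 fell by 1.92 (SE 0.62). Of 15 matrix substrates, WT had 2 higher and 1 lower and KO 1 higher and none lower, which is near those shares of all genes. Among the laminin chains in WT, Lama3 was higher (0.89, SE 0.23) and Lamb1 was lower (-1.21, SE 0.33). The gene higher in KO was Fn1, fibronectin (3.02, SE 0.92, edgeR adjusted p 0.0291), named after its value was seen.

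Genes with the most similar course to a member were ranked by the mean absolute difference in log2 CPM, after subtracting each gene's mean, over the 29 libraries of days 3 and 7 and 12879 genes. Mmp10 was closest to Fpr1 (0.56), Mmp13 (0.59) and Wfdc21 (0.61), and Mmp13 to Mmp10 (0.59), Wfdc21 (0.60) and Cd33 (0.62), where the median gene was at 2.47 and 2.27. Timp1 was closest to Lrrc25 (0.69), Ccl2 (0.71) and Slfn1 (0.72), with the median gene at 1.88. Mmp7 was closest to Dynlt1a (0.33), Cd38 (0.38) and Tmem184c (0.39), with the median at 0.79, and Mmp15 to Adipor2 (0.13), Slc22a23 (0.13) and Ell2 (0.13), with the median at 0.29. Fpr1 and Cd33 are known from myeloid cells, and Ccl2 encodes a monocyte attractant. The 29 libraries share their neutrophil and fibroblast marker differences, so likeness is a description only.

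Within the chromosome 9 cluster the increase skipped genes. Mmp13, Mmp12, Mmp3, Mmp10, Mmp8 and Mmp7 were detected on day 7, while the genes between them were near or at 0: Mmp1a had no count in any library, Mmp1b and Mmp27 at most 1 count, and Mmp20 at most 7 counts. Per length, the WT day 7 means were 3.50 CPM per kb for Mmp13, 0.268 for Mmp12, 2.57 for Mmp3, 1.90 for Mmp10, 7.17 for Mmp8 and 2.79 for Mmp7. Mmp7, at the far end of the cluster, had a WT day 3 mean of 1.14 CPM per kb, and the next highest was Mmp13 at 0.0573. Exons of Mmp12 share 157 bases with Mmp1b and those of Mmp7 share 123 with AV064505, which had at most 1 and 0 counts.

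**Figure D5:**
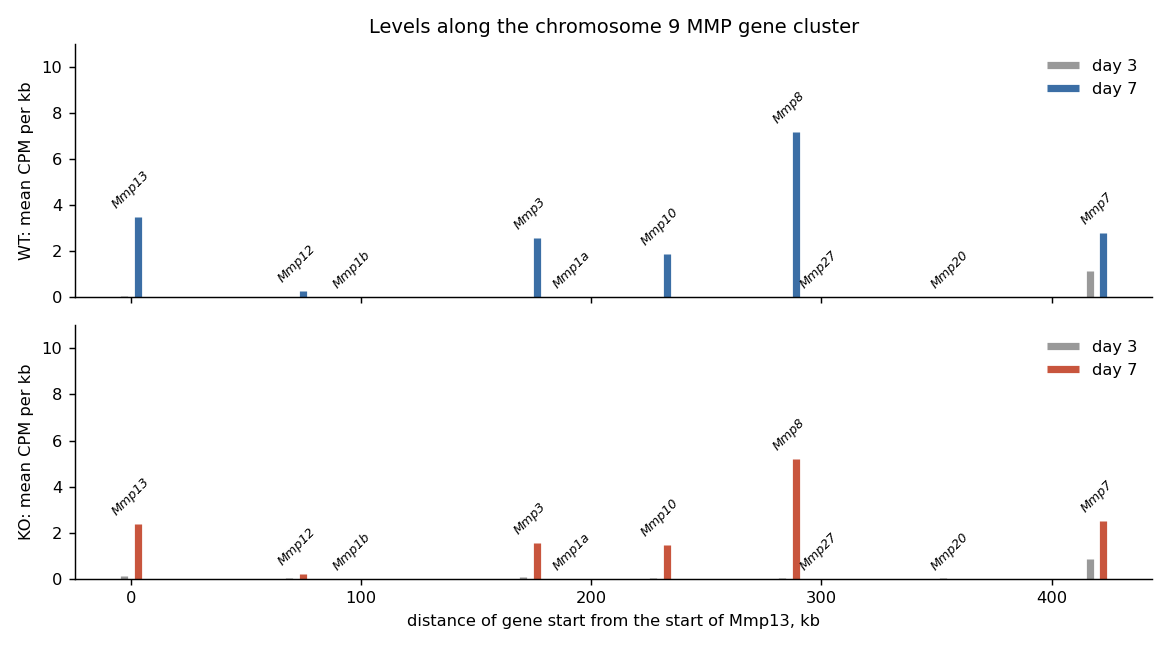
Mean level in CPM per kb of the 10 genes of the chromosome 9 cluster on day 3 (grey) and day 7 (coloured), placed by the distance of each gene start in the files from that of Mmp13 in kb, for WT (top) and KO (bottom). On day 7, Mmp8 is the tallest at 7.17 in WT and 5.20 in KO, and Mmp1a, Mmp1b, Mmp27 and Mmp20 lie near 0.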

How the data were processed

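RNA of 38 libraries was measured by paired RNA sequencing with 50-base reads, per the labels' protocols. The authors deposited raw counts per gene, 1 file per lane, made with featureCounts 1.6.2 without regard to strand, per the file headers. Trim Galore, STAR, featureCounts 1.5.2 and the GRCm38 build are named in the submitters' processing notes, and the annotation release is not given in the sources used here. Overlapping and antisense genes can therefore lose or share reads. Here the 2 lanes of each library were summed. Groups came from the labels, and each library counted as 1 replicate.

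Each comparison used the groups concerned, filterByExpr with 10 counts, TMM scaling and edgeR 4.0.16 quasi-likelihood tests (R 4.3.3, limma 3.58.1), with Benjamini-Hochberg adjustment over all genes tested and a threshold of 0.05. The script was tested on simulated data. Alternatives were DESeq2 1.42.0 size factors, its Wald test, no filter, 1 fit of all 38 libraries, lane 1 alone and leaving out each library, and 3 sets of libraries left out together were added after seeing the data. A level of 3 counts was taken as the floor for fold bounds, which cover counting error only.

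All 10 members are named. Other MMP and TIMP genes are named if called on day 7 against day 3, and up to 3 genes in each direction by size from the system and matrix lists in WT. Likeness was computed for 5 members among genes with a mean of at least 1 CPM, with a prior count of 2. The members and lists were chosen with earlier results of these data known. Promoter windows came from RefSeq. One gene of the matrix substrate list is not reported here by name.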

Additional observations from a re-analysis of the deposited data

Results flagged for a closer look

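In groups of 4 to 10 libraries, the gap of the highest or lowest library to its nearest neighbour was set against the group's range. Of 51 such sets of member levels, 10 had a library far from the others, in each case the highest of its group. A rate of about 1 in 20 by chance holds for normal and independent sets. These sets are CPM without log transformation and share libraries, so the count cannot be read against that rate. On KO day 3, the library labelled d3_KO_345 stood apart for Mmp9 (4.98 CPM, others 0.023 to 0.21) and Timp1 (10.5 CPM, others 0.0235 to 0.315), and d3_KO_387 for Mmp10 (0.175 CPM, from 5 counts). On day 7, d7_KO_420 stood apart for Mmp9 (59.7 CPM, others 1.46 to 12.0) and Mmp13 (18.3 CPM, others 0.781 to 7.38), d7_KO_367 for Mmp7 (5.79 CPM, others 1.55 to 2.82) and d7_WT_356 for Timp1 (5.90 CPM, others 0.286 to 2.66). On day 0 the 3 values rested on few counts: Mmp12 in d0_WT_31 (0.352 CPM, 6 counts), Mmp13 in d0_KO_24 (0.243 CPM, 4 counts) and Timp1 in d0_WT_46 (0.181 CPM, 9 counts, others 0). The library d0_WT_46 was sequenced to 44.9 M counts, beside 12.7 to 18.9 M in the other WT day 0 libraries.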

How the results depend on the processing

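No paired analysis was possible because the replicate numbers are animal numbers that no 2 groups share. The count of members called on day 7 against day 3 in WT was 8 under each alternative except lane 1 alone, where it was 6 because Mmp12 and Timp1 did not pass the filter. In KO it was 6 under the other scaling, test, filter and joint fit, 3 with lane 1 alone, where Mmp3, Mmp10 and Mmp12 did not pass the filter, 7 without the library labelled d3_KO_345, and 8 when d7_KO_420 was left out too (Timp1 higher, and Mmp15 lower with edgeR adjusted p 0.0121). Over all genes, the fit without the library labelled d3_KO_345 called 1828 higher and 1597 lower of 15413 tested. For KO day 3 against day 0 the count of 0 became 1 with the DESeq2 Wald test (Timp2), 2 without the filter (Mmp14 and Timp2), 2 with all 38 libraries in 1 fit (Timp1 and Timp2), and 0 to 1 when 1 library was left out. No alternative called a member between genotypes or in an interaction. Over all genes the DESeq2 Wald test called 99 higher and 48 lower between genotypes on day 0 (edgeR 3 and 2) and 38 and 51 on day 7 (edgeR 1 and 0), where the joint fit called 16 and 22, and on day 0 the fit without the filter called 39 and 13. For the interaction with day 7 against day 0 it called 85 and 78 (edgeR 1 and 0). Signs that changed belong to differences that were not called. Mmp14 in KO against WT on day 3 was -0.0023 without the filter and -0.00011 in the joint fit, and on KO day 7 against day 3 it was -0.013 without d7_KO_420 and the library labelled d3_KO_345. With lane 1 alone, the interaction with day 7 against day 3 was -0.058 for Mmp7, and that with day 7 against day 0 was -0.72 for Timp1. The interaction of Mmp15 with day 3 against day 0 was 0.0050 with size factors, 0.0047 with the Wald test and 0.018 without the filter. The interaction with day 7 against day 0 was 0.13 for Mmp13 with the Wald test, and -0.0056 with both size factors and the Wald test and -0.036 in the joint fit for Mmp14. Leaving out 1 library changed the sign in these ranges of log2 differences. In KO against WT day 0: Mmp14 (-0.11 to 0.025). In KO against WT day 3: Mmp14 (-0.061 to 0.041). In KO against WT day 7: Mmp7 (-0.45 to 0.035), Mmp9 (-1.09 to 0.57), Mmp12 (-0.77 to 0.12), Mmp15 (-0.091 to 0.15). In WT day 7 against day 3: Mmp15 (-0.21 to 0.0073). In KO day 7 against day 3: Mmp14 (-0.058 to 0.048). In WT day 3 against day 0: Mmp15 (-0.14 to 0.0044). In the interaction of genotype with day 7 against day 3: Mmp7 (-0.064 to 0.41), Mmp9 (-3.502 to 0.27), Mmp10 (-1.81 to 0.15), Mmp14 (-0.14 to 0.00063), Mmp15 (-0.17 to 0.067), Timp1 (-2.82 to 1.43). In the interaction with day 3 against day 0: Mmp12 (-1.35 to 0.51), Mmp14 (-0.036 to 0.14), Mmp15 (-0.098 to 0.034). In the interaction with day 7 against day 0: Mmp13 (-0.71 to 1.602), Mmp14 (-0.089 to 0.061), Mmp15 (-0.18 to 0.050), Timp1 (-3.84 to 1.24). The cause was not tested. Depth limits the day 0 comparisons most, where 3 counts were up to 0.332 CPM.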
